A study of Homo sapiens with 18 samples.

Results

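The genes described here are TP63 and TP73, which encode the relatives of p53, and 7 classic p53 targets, namely MDM2, CDKN1A, BBC3, BAX, SESN1, ZMAT3 and GDF15. They were chosen by symbol through the Ensembl identifier of each table entry and are 9 of 16575 genes. Transcription was read by CAGE-seq, which sequences RNA from its capped 5′ end, in 6 stable variants of each of 3 urinary bladder carcinoma lines, RT-112, CAL-29 and HT-1376. Each variant of a line gave 1 library. The question of the study was what WWOX, a putative tumor suppressor, does to signaling that depends on the transcription factors AP-2α and AP-2γ. Values are in CPM, the reads on a gene scaled to a common total of reads per library.

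Every culture underwent a pair of lentiviral transductions in starvation medium with polybrene, the first with WWOX or a blank control (puromycin selection) and the second with AP-2α, AP-2γ or a blank control (G418 selection). KK received both controls, KA control then AP-2α, KC control then AP-2γ, WK WWOX then control, WA WWOX then AP-2α and WC WWOX then AP-2γ. RT-112 was grown in RPMI-1640, and HT-1376 and CAL-29 in DMEM. A variant of a line was 1 antibiotic-selected culture, so p-values do not measure the spread between independent cultures of a variant. They measure the spread between transductants and, in comparisons without a term for the line, also that between lines. Whether WK, WA and WC of a line came from 1 culture selected after the first transduction is not given in the sources used here. The same holds for KK, KA and KC.

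p53 is a transcription factor that is kept at a low level by the ubiquitin ligase MDM2, itself a p53 target, and that accumulates after DNA damage and other stress. It then activates genes of cell cycle arrest, apoptosis, metabolism and secreted signals through a DNA element of abutting repeats. p63 and p73 bind similar elements, and p63 is a lineage factor of basal cells in stratified epithelia and in the urothelium.

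Reads on genes, recovered from the deposited values, ranged from 13357102 to 17958572 per library, and a gene without reads could be at up to 0.158 to 0.213 CPM (3 reads, counting error only). The library labelled CAL-29 KC stood apart. Its median correlation was 0.940 with the HT-1376 libraries and 0.741 with the other CAL-29 libraries, and at 10% or more of their usual level it held 46 of 47 genes particular to HT-1376 and 7 of 68 particular to CAL-29. It was left out of the main tests, which used 17 libraries, and its values are given apart. All 6 epithelial markers (EPCAM, CDH1, KRT7, KRT8, KRT18 and KRT19) were present, with sums of 4674 to 25691 CPM.

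Reads on WWOX and on the AP-2 genes did not follow every label. WWOX was at 155 CPM in CAL-29 WK, against 51.3 to 69.3 CPM in the other 4 CAL-29 libraries tested, WA and WC included. In RT-112, WWOX was at 22.3, 18.9 and 18.4 CPM in WK, WA and WC and at 26.0, 23.5 and 25.9 CPM in KK, KA and KC. In HT-1376 it was at 18.6, 19.2 and 23.1 CPM in WK, WA and WC and at 22.4, 24.7 and 16.9 CPM in KK, KA and KC. Reads on WWOX were thus raised in 1 of the WWOX-labelled libraries, CAL-29 WK. Whether reads on these genes include transcripts from the vectors is not given in the sources used here, and protein was not measured in these libraries. The study reports Western blots of WWOX and the AP-2 proteins to check the transductions. The variants are named by their label throughout. TFAP2A, the gene of AP-2α, was at 46.8 CPM in RT-112 KA and 18.01 CPM in KK, and TFAP2C, the gene of AP-2γ, was at 264 CPM in RT-112 KC and 58.0 CPM in KK. However, the library labelled RT-112 WA was at 25.3 CPM of TFAP2A and 179.9 CPM of TFAP2C, which goes against its label. In HT-1376, TFAP2A was at 69.9 CPM in WA, 76.9 CPM in WK and 68.99 CPM in KK, so reads on TFAP2A were not raised in WA. TFAP2C was at 163 CPM in HT-1376 WC, above WK (68.99 CPM) but near KK (158 CPM). In CAL-29, TFAP2A was at 86.7 CPM in WA and 35.4 CPM in KK, and TFAP2C at 339 CPM in WC and 88.0 CPM in KK.

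Matches to the p53 element were read near the members, since p53 activates its targets through such elements. The 20-base p53 consensus with no spacer was searched on both strands of hg38 within 5000 bases of each RefSeq start, and distances run from that start to the centre of the match, negative before the start. Exons and introns are those of GENCODE 44, whose genes can begin before the RefSeq start. The matches with at most 3 mismatches are shown, with the 4-base cores of the repeats in capitals. Only matches that kept the first C and last G of both cores were counted, in the members and in all genes.
MDM2, chr12:68808923-68808942, plus strand: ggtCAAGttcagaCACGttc
CDKN1A, chr6:36676449-36676468, plus strand: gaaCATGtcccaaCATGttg
BBC3, chr19:47231320-47231339, minus strand: ctgCAAGtcctgaCTTGtcc
BAX, chr19:48955213-48955232, plus strand: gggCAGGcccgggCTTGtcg
SESN1, chr6:109098576-109098595, minus strand: gggCTTGttggcaCGTGcct
ZMAT3, chr3:179070188-179070207, minus strand: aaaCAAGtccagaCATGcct
GDF15, chr19:18385308-18385327, plus strand: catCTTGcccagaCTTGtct
The ZMAT3 match lay 1612 bases past the start in an intron and had 0 mismatches, as had the best match of 0.238% of 27305 genes. The matches of MDM2 (760 bases, intron), CDKN1A (−2256 bases, across the 5′ end of the GENCODE gene), BAX (348 bases, exon) and GDF15 (−840 bases, intron) each had 2 mismatches. A match with at most 2 mismatches was found for 5 of 9 members and for 7.96% of all genes. The BBC3 match (1338 bases, intron) and the SESN1 match (−3740 bases, outside the gene) had 3 mismatches, and 39.8% of all genes had a match this close. The best matches of TP73 and TP63 had 4 and 5 mismatches and are not printed. These are matches of letters, and binding was not measured.

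The AP-2 motif GCCNNNGGC, which reads the same on both strands, was searched from 250 bases before to 50 bases after the RefSeq start, since AP-2 factors were introduced. It was found for 2 of 9 members, TP73 and SESN1, and in 23.0% of 27305 windows of this length. Their windows are shown in the direction of transcription (RefSeq, GRCh38.p14) with the motif in capitals.
TP73, chr1:3652266-3652565, plus strand: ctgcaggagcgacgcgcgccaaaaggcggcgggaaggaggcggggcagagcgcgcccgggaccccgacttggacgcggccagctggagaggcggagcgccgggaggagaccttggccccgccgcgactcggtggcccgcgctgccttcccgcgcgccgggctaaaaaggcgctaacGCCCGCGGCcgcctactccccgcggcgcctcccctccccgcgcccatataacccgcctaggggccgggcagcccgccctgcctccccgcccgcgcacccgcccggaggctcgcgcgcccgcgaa
SESN1, chr6:109094797-109095096, minus strand: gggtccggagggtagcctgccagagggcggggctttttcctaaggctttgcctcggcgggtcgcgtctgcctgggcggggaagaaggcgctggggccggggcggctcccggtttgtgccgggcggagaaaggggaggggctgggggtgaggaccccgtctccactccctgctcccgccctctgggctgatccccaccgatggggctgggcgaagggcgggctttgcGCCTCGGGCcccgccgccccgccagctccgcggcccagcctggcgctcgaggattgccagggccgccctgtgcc

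**Figure D1:**
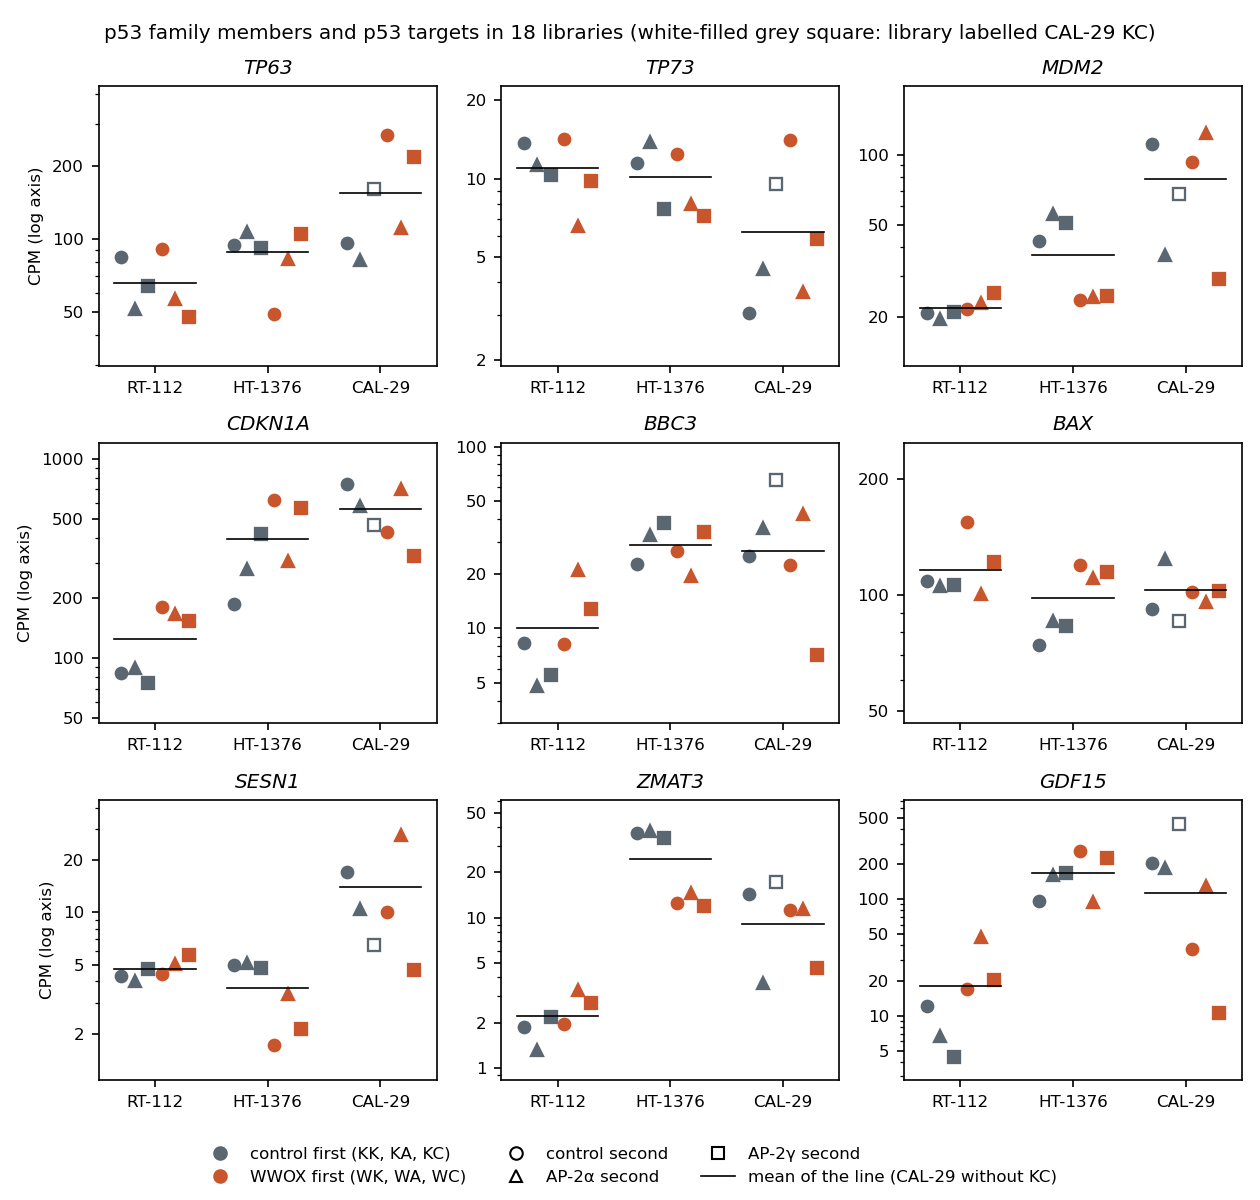
Level of each member in each of the 18 libraries, in CPM on a log axis and grouped by cell line. Colour gives the first transduction by label, shape the second, and black lines the mean of a line without the white-filled library labelled CAL-29 KC. ZMAT3 was at 1.32 to 3.30 CPM in RT-112 and at 11.9 to 38.0 CPM in HT-1376, where the control-labelled libraries (33.9 to 38.0 CPM) lay above the WWOX-labelled ones.

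Levels of members differed between the cell lines, as did those of most genes. As deposited, CDKN1A, BBC3, GDF15 and ZMAT3 were lower in RT-112 than in HT-1376 and in CAL-29, SESN1 was higher in CAL-29 than in the other lines, and TP73 was lower there. BAX did not pass the test in any pair of lines. After TMM scaling, described below, BBC3, GDF15 and SESN1 did not pass between RT-112 and CAL-29, and BAX was higher in RT-112 than in the other lines. Lines were compared with limma on log2(CPM + 0.5) with the variant as a covariate and Benjamini-Hochberg adjustment over the 12991 genes that reached 5 CPM in 1 or more of the 17 libraries. A line is 1 culture lineage, so p-values between lines measure only the spread between transductants of a line. RT-112 alone was grown in RPMI-1640, so its differences from the other lines cannot be told apart from those of the medium. The pseudocount understates differences of genes with low values. All 9 members passed this filter, ZMAT3 only through HT-1376 and CAL-29, so its difference from RT-112 was partly fixed by the filter.

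Between RT-112 and HT-1376, 4 of 9 members were lower in RT-112 and 0 were higher, beside 42.6% and 19.2% of all genes. Between RT-112 and CAL-29, 7 of 9 were lower in RT-112 and 1 was higher, beside 56.2% and 15.3% of all genes. Between HT-1376 and CAL-29, 2 of 9 were lower in HT-1376 and 2 were higher, beside 43.4% and 17.6%. The median log2 difference of the members was −0.65, −1.31 and −0.06 in these 3 comparisons, beside −0.43, −0.84 and −0.47 over all genes. The counts of members were thus on the side on which most genes lay in the comparisons with RT-112. Since the medians over all genes were below 0, the comparisons were repeated after TMM scaling, which centres the bulk of the genes and brought the medians over all genes to −0.09, −0.14 and −0.10. After TMM scaling, 4 members were lower and 2 higher in RT-112 than in HT-1376 (30.7% and 28.2% of all genes), 3 were lower and 2 higher in RT-112 than in CAL-29 (37.7% and 31.7%), and 1 was lower and 2 higher in HT-1376 than in CAL-29 (30.2% and 26.7%).

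**Figure D2:**
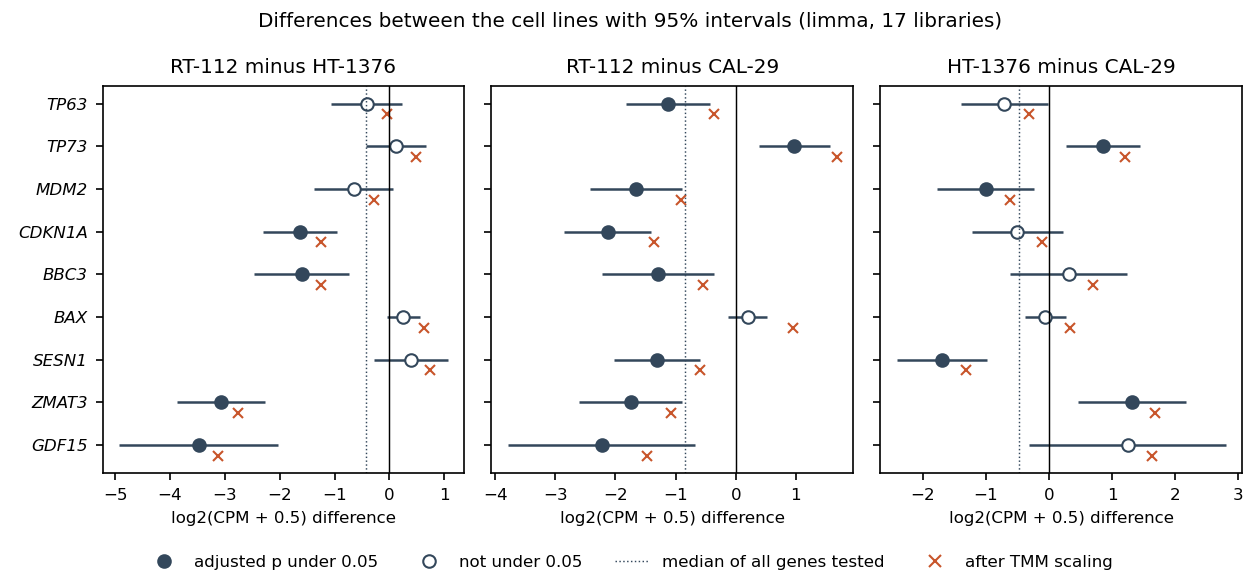
Log2(CPM + 0.5) differences between cell lines for the 9 members, with 95% intervals from limma over 17 libraries. Filled points had an adjusted p under 0.05, crosses are the differences after TMM scaling, and dotted lines are the median of all genes tested. GDF15 (−3.48) and ZMAT3 (−3.07) were farthest from 0 between RT-112 and HT-1376.

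TP63 (ENSG00000073282.13, chr3:189631389-189897276, as placed by GENCODE 44 on GRCh38, plus strand) encodes p63, and its mean level was lowest in RT-112 and highest in CAL-29. It was at 65.7 ± 17.9 CPM (SD, n = 6) in RT-112, 88.0 ± 21.1 CPM (SD, n = 6) in HT-1376 and 155 ± 83.0 CPM (SD, n = 5) in CAL-29. Only the ends of this order passed the test, with a log2 difference (RT-112 minus CAL-29) of −1.13 ± 0.32 (SE, adjusted p = 0.00624), and after TMM scaling this difference was −0.37 (adjusted p = 0.336). With the library labelled CAL-29 KC included, the difference between HT-1376 and CAL-29 passed as well, at −0.74 (adjusted p = 0.0482). In CAL-29 the libraries spread widely, with TP63 at 96.6 and 82.2 CPM in KK and KA, 269, 111 and 218 CPM in WK, WA and WC and 161 CPM in the library labelled KC. The WWOX-labelled libraries of CAL-29 all lay above KK and KA. Neighbours in the order passed without single variants, RT-112 against HT-1376 without WK, at −0.68 (adjusted p = 0.0305), and HT-1376 against CAL-29 without KA, at −0.97 (adjusted p = 0.0307).

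TP73 (ENSG00000078900.15, chr1:3652516-3736201, plus strand) encodes p73, which activates many of the same targets. It was at 11.0 ± 2.79 CPM (SD, n = 6) in RT-112 and 10.1 ± 2.86 CPM (SD, n = 6) in HT-1376, which did not differ beyond their spread (log2 difference 0.12 ± 0.25 SE, adjusted p = 0.707). In CAL-29 it was lower, at 6.21 ± 4.50 CPM (SD, n = 5), with log2 differences of 0.98 ± 0.27 (SE, adjusted p = 0.00540) from RT-112 (RT-112 minus CAL-29) and 0.86 ± 0.27 (SE, adjusted p = 0.0147) from HT-1376 (HT-1376 minus CAL-29). In CAL-29, TP73 was at 3.03 and 4.48 CPM in KK and KA and at 14.0, 3.65 and 5.85 CPM in WK, WA and WC, and WK was the only one of these above 6 CPM. The difference from HT-1376 did not pass without KK, KA or WA (adjusted p of 0.0747, 0.0639 and 0.0520). The library labelled CAL-29 KC was at 9.54 CPM, within the range of RT-112 and of HT-1376. TP73 overlaps TP73-AS1 and WRAP73, genes of the other strand, and how the deposited values assigned reads by strand is not given in the sources used here.

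MDM2 (ENSG00000135679.25, chr12:68808177-68845544, plus strand), the ubiquitin ligase of the p53 feedback loop, was steady in RT-112 and varied in the other lines. In RT-112 it was at 20.8, 19.6 and 20.9 CPM in KK, KA and KC and at 21.6, 22.9 and 25.4 CPM in WK, WA and WC, a range of 1.30-fold. In HT-1376 it was at 42.5, 55.6 and 50.7 CPM in the control-labelled and 23.6, 24.4 and 24.5 CPM in the WWOX-labelled libraries, in the same order of variants. In CAL-29 it was at 111.5 and 37.0 CPM in KK and KA, at 93.2, 123 and 29.2 CPM in WK, WA and WC, and at 67.9 CPM in the library labelled KC. CAL-29 KA and WC were thus low, and the other 3 CAL-29 libraries tested lay above 90 CPM. MDM2 was lower in RT-112 than in CAL-29 (log2 difference −1.66 ± 0.36 SE, adjusted p = 9.01e-04) and lower in HT-1376 than in CAL-29 (−1.01 ± 0.36 SE, adjusted p = 0.0259), and the latter did not pass after TMM scaling, at −0.62 (adjusted p = 0.0996), or without KK, WK or WA (adjusted p of 0.0821, 0.1205 and 0.149). RT-112 and HT-1376 did not differ beyond their spread (−0.65 ± 0.33 SE, adjusted p = 0.104). The last part of MDM2 overlaps the carboxypeptidase M gene on the other strand.

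CDKN1A (ENSG00000124762.14, chr6:36676460-36687337, plus strand) encodes p21, the inhibitor of cyclin-dependent kinases that carries out p53-dependent arrest. Its level was lowest in RT-112, at 84.4, 89.0 and 75.1 CPM in KK, KA and KC and 180.5, 165 and 154 CPM in WK, WA and WC. In HT-1376 these values were 186, 279.7 and 416 CPM and 617, 305 and 562 CPM. In CAL-29 it was at 748 and 579 CPM in KK and KA, 427, 701 and 324 CPM in WK, WA and WC, and 464 CPM in the library labelled KC. The highest RT-112 library lay below the lowest HT-1376 library. CDKN1A was lower in RT-112 by a log2 difference of −1.63 ± 0.31 (SE, adjusted p = 5.11e-04) against HT-1376 and −2.13 ± 0.34 (SE, adjusted p = 7.47e-05) against CAL-29, and both passed after TMM scaling, at −1.26 (adjusted p = 0.00309) and −1.37 (adjusted p = 0.00232). HT-1376 and CAL-29 did not differ beyond their spread (95% interval of the log2 difference −1.23 to 0.22).

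BBC3 (ENSG00000105327.18, chr19:47220822-47232766, minus strand) encodes PUMA, a BH3-only protein that triggers mitochondrial apoptosis. In RT-112 it was at 8.31, 4.79 and 5.56 CPM in KK, KA and KC and at 8.17, 21.0 and 12.7 CPM in WK, WA and WC, and the library labelled WA was the highest. In HT-1376 it ranged from 19.5 to 37.8 CPM (median 29.5) and in CAL-29 from 7.14 to 42.5 CPM (median 25.0), while it was at 65.5 CPM in the library labelled CAL-29 KC. BBC3 was lower in RT-112 than in HT-1376 (log2 difference −1.60 ± 0.40 SE, adjusted p = 0.00356) and than in CAL-29 (−1.29 ± 0.43 SE, adjusted p = 0.0157), and the latter did not pass after TMM scaling, at −0.55 (adjusted p = 0.252), or without KA (adjusted p of 0.0861).

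BAX (ENSG00000087088.20, chr19:48954815-48961798, plus strand), the pore-forming effector of the same route, had similar means in the 3 lines. It was at 116 ± 20.3 CPM (SD, n = 6) in RT-112, 98.0 ± 19.3 CPM (SD, n = 6) in HT-1376 and 103 ± 12.3 CPM (SD, n = 5) in CAL-29. As deposited, 0 of 3 differences passed, and the 95% intervals of the log2 differences were −0.05 to 0.55 (RT-112 minus HT-1376), −0.13 to 0.52 (RT-112 minus CAL-29) and −0.38 to 0.27 (HT-1376 minus CAL-29). After TMM scaling BAX was higher in RT-112 than in HT-1376, at 0.62 (adjusted p = 0.00593), and than in CAL-29, at 0.96 (adjusted p = 3.59e-04).

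SESN1 (ENSG00000080546.13, chr6:108984309-109094846, minus strand) encodes sestrin-1, which links p53 to the restraint of mTORC1. In RT-112 it ranged from 4.0 to 5.67 CPM (median 4.55). In HT-1376 it was at 5.00, 5.11 and 4.75 CPM in KK, KA and KC and at 1.72, 3.39 and 2.14 CPM in WK, WA and WC. In CAL-29 it was at 16.99 and 10.4 CPM in KK and KA, 10.0, 27.7 and 4.67 CPM in WK, WA and WC and 6.44 CPM in the library labelled KC. CAL-29 WA was the highest and CAL-29 WC the lowest of its line, below the highest RT-112 and HT-1376 libraries. SESN1 was lower than in CAL-29 both in RT-112 (log2 difference −1.31 ± 0.33 SE, adjusted p = 0.00296) and in HT-1376 (−1.70 ± 0.33 SE, adjusted p = 6.89e-04), and the former did not pass after TMM scaling, at −0.59 (adjusted p = 0.0769). After TMM scaling it was higher in RT-112 than in HT-1376, at 0.74 (adjusted p = 0.0267), which did not pass as deposited (0.39 ± 0.31 SE, adjusted p = 0.284).

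ZMAT3 (ENSG00000172667.11, chr3:178960121-179072215, minus strand) encodes a zinc finger protein that binds RNA and regulates splicing downstream of p53. Its mean levels were in the order RT-112, CAL-29 and HT-1376. It entered the tests only through HT-1376 and CAL-29, so that its differences from RT-112 were partly fixed by the filter. In RT-112 it was at 1.88, 1.32 and 2.19 CPM in KK, KA and KC and 1.96, 3.30 and 2.71 CPM in WK, WA and WC, where the lowest value stood for 25 reads. In HT-1376 these values were 36.8, 38.0 and 33.9 CPM and 12.4, 14.7 and 11.9 CPM. In CAL-29 it was at 14.5 and 3.70 CPM in KK and KA, 11.3, 11.4 and 4.61 CPM in WK, WA and WC and 17.2 CPM in the library labelled KC. The log2 differences were −3.07 ± 0.37 (SE, adjusted p = 8.69e-06) for RT-112 minus HT-1376, −1.75 ± 0.40 (SE, adjusted p = 0.00133) for RT-112 minus CAL-29 and 1.32 ± 0.40 (SE, adjusted p = 0.0112) for HT-1376 minus CAL-29, and all 3 passed after TMM scaling. The last did not pass without KA (adjusted p of 0.0531).

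GDF15 (ENSG00000130513.6, chr19:18374731-18389176, plus strand) encodes a secreted stress cytokine of the TGF-β superfamily. It was the most variable member in RT-112, with a range of 10.7-fold, and in CAL-29, with a range of 19.7-fold. In RT-112 it was at 12.1, 6.63 and 4.44 CPM in KK, KA and KC and 16.99, 47.7 and 20.1 CPM in WK, WA and WC. In HT-1376 these values were 96.1, 160.4 and 168 CPM and 261, 94.6 and 227 CPM. In CAL-29 it was at 206 and 184 CPM in KK and KA, 37.0, 129 and 10.5 CPM in WK, WA and WC and 443 CPM in the library labelled KC. CAL-29 WC lay below 4 of the 6 RT-112 libraries, whereas every HT-1376 library lay above every RT-112 library. GDF15 was lower in RT-112 than in HT-1376 (log2 difference −3.48 ± 0.68 SE, adjusted p = 5.39e-04) and than in CAL-29 (−2.23 ± 0.72 SE, adjusted p = 0.0132), and the latter did not pass after TMM scaling, at −1.48 (adjusted p = 0.0761), or without KK or KA (adjusted p of 0.0582 and 0.0790). MIR3189, a microRNA gene inside GDF15, was listed at 98.1% to 100% of the GDF15 value in all 18 libraries, with a largest gap of 0.93 CPM, so the entries were not separate measurements.

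Other genes of the pathway were followed in lists, whose counts are to be read beside the shares of all genes given above. Genes that reached 5 CPM only in the line where they were high had to differ, so part of each count was fixed by the filter. Of 8 further targets of arrest and feedback, 1 was higher and 4 were lower in RT-112 than in HT-1376 (median log2 difference −1.15). BTG2, an antiproliferative gene, was at 77.6 ± 20.04 CPM in RT-112 and 39.6 ± 14.4 CPM in HT-1376 (SD, n = 6 each), and GADD45A, a stress sensor, was at 29.3 ± 9.21 and 147 ± 62.98 CPM. Of 12 apoptosis targets tested (of 14), 0 were higher and 8 lower (median −1.23), 3 of the 8 never reaching 5 CPM in RT-112, with DRAM1, a lysosomal regulator of autophagy, at 1.95 ± 0.374 CPM in RT-112 and 40.4 ± 8.77 CPM in HT-1376. Of 8 targets of DNA repair and metabolism tested (of 10), 2 were higher and 3 lower (median −0.64), and FDXR, the ferredoxin reductase, was at 28.4 ± 3.30 CPM in RT-112 and 16.4 ± 3.45 CPM in HT-1376. Of 7 other targets, 3 were higher and 2 lower (median 0.27), with IGFBP3, which binds insulin-like growth factors, at 1221 ± 316 CPM in RT-112 and 119 ± 77.2 CPM in HT-1376.

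Against CAL-29, RT-112 was lower in 4 and higher in 1 of the 8 arrest and feedback genes (median −0.66), lower in 10 and higher in 0 of 12 apoptosis genes (median −1.99, 4 of the 10 never reaching 5 CPM in RT-112), lower in 4 and higher in 1 of 8 repair and metabolism genes (median −0.74, 2 of the 4 below 5 CPM throughout RT-112) and lower in 4 and higher in 1 of 7 others (median −1.11). TIGAR, a regulator of glycolysis, was at 1.93 ± 0.497 CPM in RT-112, 4.29 ± 3.25 CPM in HT-1376 and 22.6 ± 15.5 CPM in CAL-29. HT-1376 against CAL-29 gave 3 higher and 1 lower, 3 higher and 4 lower, 2 higher and 4 lower, and 1 higher and 4 lower in these lists. After TMM scaling, the arrest and feedback genes were 1 higher and 4 lower (RT-112 against HT-1376), 1 higher and 3 lower (RT-112 against CAL-29) and 3 higher and 0 lower (HT-1376 against CAL-29). The median between RT-112 and CAL-29 then changed sign, to 0.02. The apoptosis genes were 1 higher and 8 lower, 1 higher and 9 lower, and 6 higher and 4 lower, the repair and metabolism genes 2 higher and 1 lower, 4 higher and 3 lower, and 3 higher and 3 lower, and the other targets 4 higher and 1 lower, 2 higher and 3 lower, and 1 higher and 3 lower. SFN, the 14-3-3σ protein of the G2 checkpoint, was at 1880.4 ± 388 CPM in HT-1376 and 568.1 ± 541 CPM in CAL-29.

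Among 17 regulators of p53, 2 were higher and 5 lower in RT-112 than in HT-1376, 0 higher and 12 lower in RT-112 than in CAL-29 (5 of the 12 below 5 CPM throughout RT-112), and 1 higher and 9 lower in HT-1376 than in CAL-29. CDKN2A, whose products include the MDM2 inhibitor ARF, was at 367 ± 125 CPM in HT-1376 and below the limit of 3 reads on average in RT-112 and CAL-29. Its value is for the whole gene and is not specific to ARF. MDM4, the partner of MDM2, was at 2.57 ± 0.292 CPM in RT-112 and 13.5 ± 8.36 CPM in CAL-29. Of 20 tested targets of p63 and basal adhesion genes (of 21, with SFN and PERP also in other lists), 4 were higher and 10 lower in RT-112 than in HT-1376 (3 of the 10 below 5 CPM throughout RT-112), 3 higher and 9 lower in RT-112 than in CAL-29, and 5 higher and 6 lower in HT-1376 than in CAL-29. After TMM scaling the regulators were 4 higher and 5 lower, 3 higher and 10 lower, and 3 higher and 8 lower, and the p63 list 6 higher and 9 lower, 5 higher and 8 lower, and 7 higher and 5 lower. The median of the p63 list changed sign in the comparisons with CAL-29, from −0.63 to 0.13 for RT-112 and from −0.11 to 0.27 for HT-1376. KRT14, a basal keratin, was at 481 ± 154 CPM in HT-1376 and 3.36 ± 0.896 CPM in RT-112, and KRT5, its partner, at 5.82 ± 4.35 CPM in HT-1376 and 57.4 ± 56.1 CPM in CAL-29.

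The variants were next compared with KK over the 3 lines, the comparisons the study set up, with limma and no term for the line. With Benjamini-Hochberg adjustment, 0 of 9 members and 0% of all genes passed in each of WK, KA, KC, WA and WC against KK. At an unadjusted p under 0.05 there were 37, 8, 14, 27 and 78 of the 12991 genes for WK, KA, KC, WA and WC, and 0 members in any. Over these 5 comparisons the members' log2 differences lay between −1.13 (KC) and 0.73 (WK), beside standard errors of 0.27 (BAX) to 1.83 (GDF15 in KC). On simulated data, this fit called 0 of 100 genes changed by 2-fold and 7 of 100 changed by 4-fold for WK against KK, so differences of this size would mostly not have been detected. With the cell line as a block, which pairs the variants, 0 members and 0 genes passed again, where 38 of 100 simulated 2-fold and 99 of 100 simulated 4-fold changes were called. The simulation gave every gene the same dispersion and the same change in all 3 lines. Its shares therefore do not hold for members that spread more widely or change in single lines.

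When lines were given a term of their own and WWOX-labelled libraries were set against control-labelled ones, 0 of 9 members and 0% of genes again passed. CDKN1A had the largest log2 difference, 0.49 ± 0.25 (SE, adjusted p = 0.431), and BAX followed among the higher ones with 0.23 ± 0.12 (SE, adjusted p = 0.433). The same held for AP-2α and AP-2γ, each against the control of the second transduction. TP73 and SESN1, which hold the AP-2 motif in their promoter windows, had log2 differences of −0.50 ± 0.29 (SE, adjusted p = 1.0) and 0.28 ± 0.33 (SE, adjusted p = 1.0) with AP-2α and −0.49 ± 0.31 (SE, adjusted p = 0.999) and −0.16 ± 0.35 (SE, adjusted p = 0.999) with AP-2γ. At an unadjusted p under 0.05 there were 1591, 197 and 341 genes for WWOX, AP-2α and AP-2γ, and 0 members. For WWOX, limma-voom passed 69 genes, edgeR 13 and DESeq2 215, with 0 members in each.

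In single lines, some members separated by the WWOX label without overlap, MDM2 and GDF15 on opposite sides in different lines. For MDM2 the RT-112 side was small beside its error, a log2 difference of 0.18 ± 0.43 (SE). In RT-112, MDM2, CDKN1A and GDF15 were higher in all 3 WWOX-labelled libraries than in all 3 control-labelled ones, beside 9.49% of all genes, and 0 members were lower without overlap, beside 11.5%. In HT-1376, BAX was higher without overlap, beside 12.9% of all genes, and MDM2, SESN1 and ZMAT3 were lower, beside 22.7%. In CAL-29, TP63 was higher and GDF15 lower in the 3 WWOX-labelled libraries than in KK and KA, beside 9.01% and 9.78%. An exact permutation test of 3 against 3 libraries cannot give a p below 0.10, so single lines were tested with limma across all genes, with terms for the line and AP-2 and a WWOX term in each line. If libraries with the same first transduction share a parent culture, these p-values do not measure the spread between WWOX cultures. That limit also applies to the tests of the WWOX difference between lines.

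In HT-1376, ZMAT3 fell with WWOX by label, and it was the only member to pass in any line, beside 4.36% of all genes that were lower and 4.22% that were higher. Its values in the control-labelled libraries were 36.8, 38.0 and 33.9 CPM, against 12.4, 14.7 and 11.9 CPM in the WWOX-labelled ones, a ratio of means of 0.3596 and a log2 difference of −1.44 ± 0.42 (SE, adjusted p = 0.0478). The call lay close to the threshold. It was lost with a pseudocount of 0.05 CPM (adjusted p = 0.0638), with all 18 libraries (0.111), and without the KK (0.0836), KC (0.160), WK (0.302) or WC (0.148) libraries, and kept in limma-voom, edgeR and DESeq2 (0.0116, 0.0309 and 0.00936). MDM2 and SESN1 were also low in the WWOX-labelled libraries of HT-1376, with log2 differences of −1.02 ± 0.43 (SE, adjusted p = 0.151) and −0.94 ± 0.44 (SE, adjusted p = 0.194), and BAX was high, at 0.51 ± 0.17 (SE, adjusted p = 0.0858), but none of the 3 passed. In DESeq2, BAX and CDKN1A also passed in HT-1376, at 0.75 (adjusted p = 0.0362) and 1.01 (adjusted p = 0.0292).

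Markers of other cell types moved with the same label in HT-1376. The fibroblast markers COL1A1 and COL1A2 summed to 36.3 to 59.3 CPM in the WWOX-labelled libraries and 3.82 to 12.6 CPM in the control-labelled ones, and DCN and PDGFRB were not in the table used here. Of 4 leukocyte markers 2 were listed, CD14 and CD68, and summed to 6.45 to 15.1 CPM against 1.91 to 2.38 CPM, of which CD14 made up at most 0.38 CPM. The sum of the epithelial markers was 9361 to 10601 CPM against 12604 to 14411 CPM, but single markers differed. KRT7, KRT8 and KRT18 were lower without overlap, and CDH1 and EPCAM overlapped. KRT19 was higher, at 378, 235 and 308 CPM in WK, WA and WC against 84.7, 94.9 and 12.6 CPM in KK, KA and KC. CDH5, the 1 endothelial marker of 3 listed, was at 0.19 to 0.71 CPM against 2.1 to 4.11 CPM. The WWOX-labelled libraries of HT-1376 had a median correlation with RT-112 of 0.778 to 0.807, against 0.751 to 0.770 for the control-labelled ones. In RT-112, the fibroblast sum was 6.75 to 7.60 CPM in WWOX-labelled and 3.44 to 4.31 CPM in control-labelled libraries. The CAL-29 sums were 5.46 to 9.71 CPM against 9.74 to 13.8 CPM for fibroblast and 5984 to 7727 CPM against 4674 to 5287 CPM for epithelial markers. In CAL-29, KRT19 and KRT8 were higher without overlap, and KRT7, KRT18, CDH1 and EPCAM overlapped. KRT19 was at 5569, 3476 and 5277 CPM in WK, WA and WC against 2104 and 3041 CPM in KK and KA. The part of these values in the ZMAT3 difference, or in the member differences of the other lines, was not tested, and fewer cells of a type cannot be told apart from less RNA per cell in such bulk libraries.

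**Figure D3:**
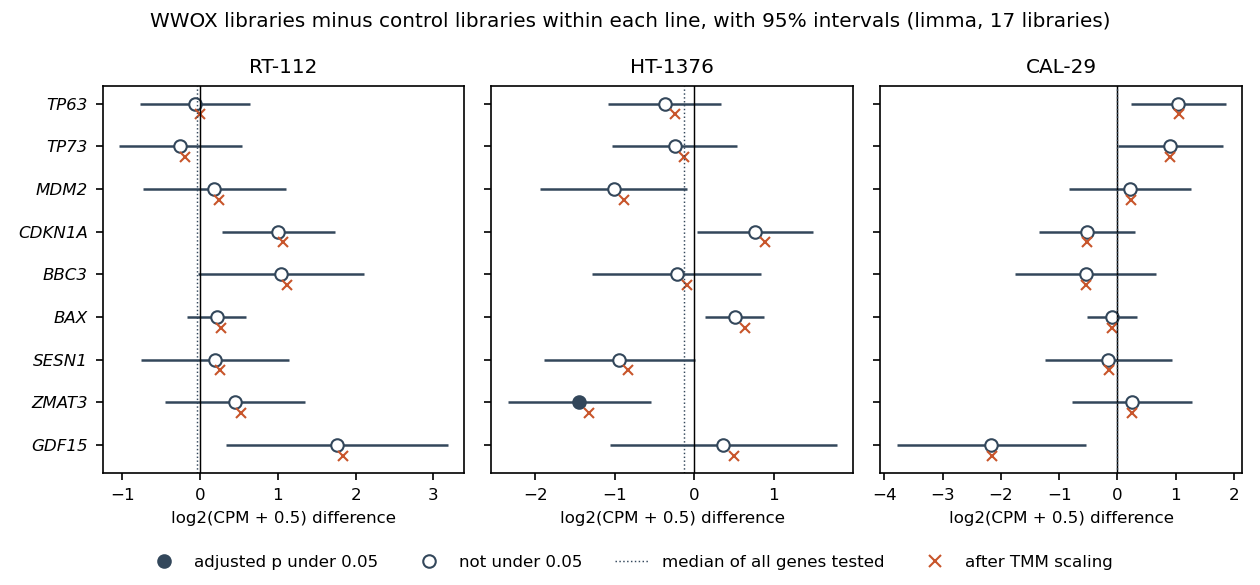
Log2(CPM + 0.5) differences between WWOX-labelled and control-labelled libraries within each line, with 95% intervals from limma over 17 libraries. Filled points had an adjusted p under 0.05, crosses are the values after TMM scaling, and dotted lines are the median of all genes tested. ZMAT3 in HT-1376 (−1.44) is the only filled point, and GDF15 was at 1.76 in RT-112 and −2.16 in CAL-29.

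In RT-112, 0 of 9 members and 0% of genes passed. CDKN1A was at 180.5, 165 and 154 CPM in WK, WA and WC and at 84.4, 89.0 and 75.1 CPM in KK, KA and KC, a ratio of means of 2.01 and a log2 difference of 1.00 ± 0.34 (SE, adjusted p = 0.502). GDF15 was at 16.99, 47.7 and 20.1 CPM against 12.1, 6.63 and 4.44 CPM, a log2 difference of 1.76 ± 0.66 (SE, adjusted p = 0.531). Its highest value was in the library labelled WA, whose reads on the AP-2 genes go against its label. Without the WA libraries of the 3 lines the GDF15 difference was 1.34 (adjusted p = 1.0).

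In CAL-29, 0 of 9 members passed, beside 0.316% of genes that were higher and 0.246% that were lower. GDF15 was at 37.0, 129 and 10.5 CPM in WK, WA and WC and at 206 and 184 CPM in KK and KA, a log2 difference of −2.16 ± 0.76 (SE, adjusted p = 0.239). It passed only without the WA libraries, at −3.11 (adjusted p = 0.0136). TP63 was at 269, 111 and 218 CPM against 96.6 and 82.2 CPM, a log2 difference of 1.04 ± 0.38 (SE, adjusted p = 0.261). TP73 had a difference of 0.90 ± 0.42 (SE, adjusted p = 0.405), which passed without the WA libraries, at 1.55 (adjusted p = 0.0389).

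Whether the WWOX difference itself varied between lines was tested as an interaction. For RT-112 minus HT-1376, RT-112 minus CAL-29 and HT-1376 minus CAL-29, 1.25%, 0.277% and 3.84% of genes passed, and 0 of 9 members in each. The widest member differences were those of GDF15 between RT-112 and CAL-29, 3.93 ± 1.00 (SE, adjusted p = 0.124), and between HT-1376 and CAL-29, 2.53 ± 1.00 (SE, adjusted p = 0.172). ZMAT3 differed by 1.90 ± 0.59 (SE, adjusted p = 0.136) between RT-112 and HT-1376. GDF15 passed in the comparison of RT-112 with CAL-29 in DESeq2, at 3.77 (adjusted p = 0.00584), and without the WA libraries, at 4.45 (adjusted p = 0.0185). In DESeq2, ZMAT3 passed between RT-112 and HT-1376, at 1.93 (adjusted p = 0.0177). Between HT-1376 and CAL-29, CDKN1A and GDF15 passed in DESeq2 (adjusted p of 0.0453 and 0.0387) and without the WA libraries (0.0393 and 0.0132). On simulated data this test called 12 of 100 genes changed by 2-fold and 88 of 100 changed by 4-fold between RT-112 and HT-1376. The simulation gave every gene the same dispersion, so these shares do not hold for members that spread more widely, such as GDF15.

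Other genes of the pathway passed in HT-1376 and, for 1 gene, in CAL-29. Of the 20 p63 targets and basal adhesion genes, 5 were higher and 0 lower in the WWOX-labelled libraries of HT-1376, beside 4.22% and 4.36% of all genes. Their median log2 difference was 0.56, beside −0.13 over all genes. The lists were chosen with earlier results of these data known. S100A2, a calcium-binding protein of basal cells, was at 4276, 4599 and 3357 CPM in WK, WA and WC and at 23.2, 118 and 259.7 CPM in KK, KA and KC, a log2 difference of 5.49 ± 0.64 (SE, adjusted p = 3.31e-04). HAS3, a hyaluronan synthase, was at 63.9, 95.3 and 44.5 CPM against 0.660, 5.05 and 8.23 CPM (4.09 ± 0.63 SE, adjusted p = 0.00215). In RT-112, S100A2 was at 3298 to 7574 CPM. TP63 itself was at 48.9, 82.6 and 105 CPM against 94.2, 106 and 91.3 CPM, with overlapping groups.

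Of 8 repair and metabolism targets, 1 was lower in the WWOX-labelled libraries of HT-1376, beside 4.36% of all genes. This was POLH, the translesion polymerase η, at 19.1, 18.9 and 16.1 CPM against 45.2, 60.4 and 25.0 CPM (−1.17 ± 0.30 SE, adjusted p = 0.0297). Of 7 other targets 4 were higher, beside 4.22% of all genes. Among them were CMBL, a hydrolase, at 20.6, 38.0 and 12.2 CPM against 5.52, 7.66 and 6.52 CPM (1.63 ± 0.43 SE, adjusted p = 0.0339) and IGFBP3 at 236, 184 and 114 CPM against 34.7, 58.3 and 87.4 CPM (1.59 ± 0.45 SE, adjusted p = 0.0425). In the lists of arrest and feedback, apoptosis and regulators, 0 of 8, 0 of 12 and 0 of 17 genes passed in HT-1376. In RT-112, 0 genes of these 6 lists passed, and in CAL-29 only TRIM29 of the p63 list did (0.99 ± 0.20 SE, adjusted p = 0.0398).

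**Figure D4:**
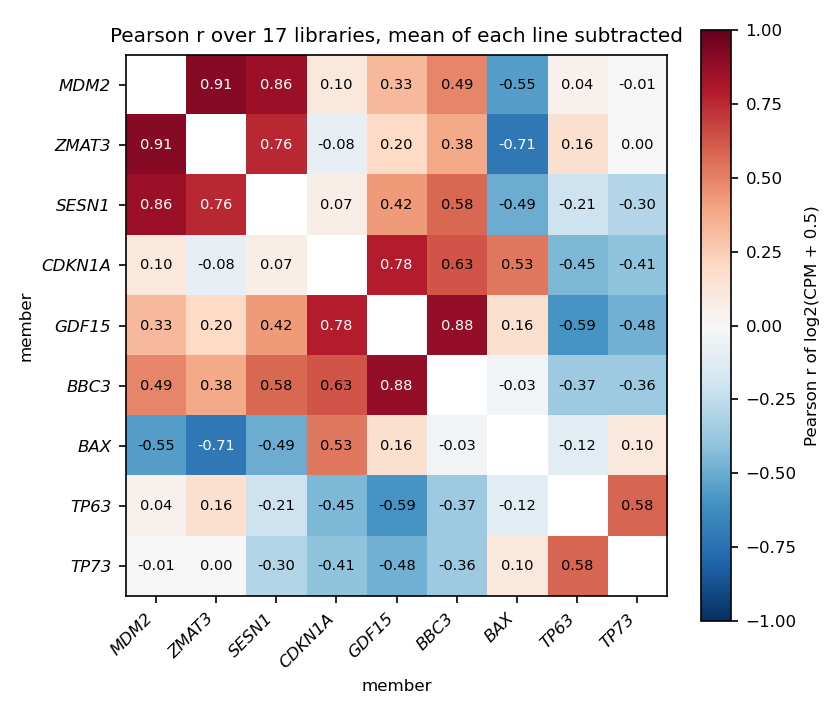
Pearson r between members over 17 libraries, on log2(CPM + 0.5) with the mean of each cell line subtracted. MDM2, ZMAT3 and SESN1 had r of 0.76 to 0.91 with each other, and CDKN1A, GDF15 and BBC3 had r of 0.63 to 0.88. Values for all pairs of genes were not computed.

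How the members varied together within lines is described by the correlation over the 17 libraries after the mean of the line was subtracted. The libraries of a line share their parent culture and the total that scales them, so these values are given without a p. The r of all pairs of genes was not computed, so whether such values are particular to the members was not tested. Genes outside the lists reached higher r with the same members, SEC24B with MDM2 (0.97) and LRCH1 with ZMAT3 (0.98). MDM2 and ZMAT3 had r = 0.91 (0.95 in CAL-29, 0.97 in HT-1376 and 0.80 in RT-112), MDM2 and SESN1 r = 0.86, and SESN1 and ZMAT3 r = 0.76. In HT-1376 all 3 were low in WK, WA and WC, and in CAL-29 MDM2 and SESN1 were lowest in WC and ZMAT3 next to lowest, at 29.2 CPM (MDM2), 4.67 CPM (SESN1) and 4.61 CPM (ZMAT3).

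GDF15 had r = 0.88 with BBC3 and r = 0.78 with CDKN1A, and within each line its r with CDKN1A was 0.83 (RT-112), 0.88 (HT-1376) and 0.95 (CAL-29, 5 libraries). In CAL-29 WC all 3 were lowest of the line, at 324 CPM (CDKN1A), 10.5 CPM (GDF15) and 7.14 CPM (BBC3). CDKN1A had r = 0.10 with MDM2, made up of 0.67 in CAL-29, −0.55 in HT-1376 and 0.66 in RT-112, and r = −0.08 with ZMAT3, made up of 0.51 in CAL-29, −0.72 in HT-1376 and 0.55 in RT-112. BBC3 had r = 0.58 with SESN1, and 0.85 within CAL-29, 0.06 within HT-1376 and 0.70 within RT-112. BAX had its lowest values of r with ZMAT3 (−0.71) and MDM2 (−0.55), and TP63 with GDF15 (−0.59).

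By the same measure, the genes most like each member were named over 17 libraries. These were SEC24B (r = 0.97) and ZNF652 (0.97) for MDM2, LRCH1 (0.98) and IGF2BP3 (0.96) for ZMAT3, ZNF664 (0.95) and NEBL (0.94) for SESN1, and RASD2 (0.91) and COL16A1 (0.90) for CDKN1A. For GDF15 they were MIR3189 (1.0), which shares its reads, and MUC4 (0.96), and for BBC3 YIPF2 (0.91) and MIB2 (0.89). BAX was followed by LAPTM5 (0.91) and FAM43A (0.88), TP63 by SCARNA11 (0.89) and WBP11 (0.88), and TP73 by EXOSC6 (0.93) and E2F2 (0.90).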

How the data were processed

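CAGE-seq libraries were measured in 3 lines with 6 variants each. The authors mapped single-end tags to hg38 with BWA and passed unmapped ones to HISAT2 2.0.5, clustered them with Paraclu from RECLU, filtered the clusters by reproducibility and deposited CPM per gene, rounded to 2 decimals. The gene annotation was not given in the sources used here. Symbols came from GENCODE 44 (16553 of 16575 identifiers matched). Whole reads were recovered from the smallest CPM step and were whole for 99.96% to 99.99% of values within 0.0051 CPM. The step was fitted in the same way in every library.

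limma 3.58.1 (trended, R 4.3.3) was run on log2(CPM + 0.5) for the 12991 genes that reached 5 CPM in 1 or more of 17 libraries, with Benjamini-Hochberg adjustment at 0.05. Variants against KK were fitted without a block, since the study's methods name none. Factor effects had terms for line, WWOX and AP-2, line differences a term for the variant, and the interaction fit a WWOX term in each line, which also gave the WWOX differences within lines. limma-voom, edgeR 4.0.16 and DESeq2 1.42.0 on recovered reads, TMM scaling, other pseudocounts and filters, all 18 libraries and left-out variants or lines were alternatives, and edgeR with a block was added after the data were seen. Fits were tested on simulated data (Python 3.11.15 for the rest).

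The numbers of the labels are the cell lines, so the line pairs the variants, and deviations of libraries of a line correlated at 0.663 to 0.915. No pair of libraries agreed within sampling noise. Named genes were the members, the label checks, the 2 genes most like each member, and up to 2 higher and 2 lower genes per list and comparison with the largest differences. Members and lists were chosen with earlier results of these data known.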

Additional observations from a re-analysis of the deposited data

Results flagged for a closer look

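In a search for single libraries far from the rest of their line, 2 of 27 groups (9 members in 3 lines) held one, and chance gives about 1 in 20. TP73 was at 14.03 CPM in CAL-29 WK, while the other CAL-29 libraries tested were at 3.03 to 5.85 CPM. GDF15 was at 47.68 CPM in the library labelled RT-112 WA, while the other RT-112 libraries were at 4.44 to 20.13 CPM. The library labelled CAL-29 KC, which entered only the alternatives with all 18 libraries, lay above all other CAL-29 libraries in 3 members. There BBC3 was at 65.52 CPM against 7.14 to 42.49 CPM, ZMAT3 was at 17.17 CPM against 3.70 to 14.46 CPM, and GDF15 was at 443.36 CPM against 10.46 to 206.18 CPM. This library resembled HT-1376, as given above. Its ZMAT3 value lay within the HT-1376 range (11.94 to 37.96 CPM). Its BBC3 and GDF15 values lay above the highest of HT-1376 (37.79 and 260.53 CPM).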

How the results depend on the processing

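Counts of members past the threshold were kept within 1.5 times by most alternatives. For RT-112 against CAL-29, 8 members passed and 5 after TMM scaling, and for HT-1376 against CAL-29, 4 passed and 2 to 4 with a variant left out. For variants against KK, where 0 genes passed with and without the replicate block, DESeq2 gave 4 (KC) and 7 (WC), and edgeR with a replicate block 1 (KA), 3 (KC), 1 (WA) and 2 (WC). The block changed no other call. For the WWOX effect (0 genes), a pseudocount of 0.05 CPM gave 2, limma-voom 69, edgeR 13, DESeq2 215 and a line left out 0 to 3. For AP-2α (0), edgeR and DESeq2 gave 1 each and a line left out 0 to 1, and for AP-2γ (0), edgeR gave 2, DESeq2 12 and a line left out 0 to 1. The WWOX interactions depended most on the processing. Between RT-112 and HT-1376, 163 genes passed, with no filter 317, with all 18 libraries 0, in limma-voom 37, in edgeR 79, in DESeq2 487 (1 member) and with a variant left out 2 to 132, the lowest without WK. Between RT-112 and CAL-29, 36 passed, with a pseudocount of 0.05 CPM 14, with no filter 67, with all 18 libraries 8, in limma-voom 13, in edgeR 14, in DESeq2 237 (1 member) and with a variant left out 0 to 187 (0 to 1 members), the highest without WA. Between HT-1376 and CAL-29, 499 passed, with no filter 762, with all 18 libraries 20, in DESeq2 1054 (2 members) and with a variant left out 36 to 551 (0 to 2 members), the lowest without WK. Within RT-112, 0 genes passed, and 3 and 1 with pseudocounts of 0.05 and 2 CPM, 2 with no filter, 2 after TMM scaling and 25 in DESeq2. Within HT-1376, 1115 genes and 1 member passed, against 241 and 0 with all 18 libraries, 1885 and 3 in DESeq2, 0 members with a pseudocount of 0.05 CPM, and 141 to 1092 genes and 0 to 1 members with a variant left out, the lowest without WK. Within CAL-29, 73 genes passed, against 39 with a pseudocount of 0.05 CPM, 146 with no filter, 24 in edgeR, 296 in DESeq2 and 9 to 479 (0 to 2 members) with a variant left out, the highest without WA. The cause was not tested.

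Differences that changed sign had all failed the threshold. BAX in HT-1376 minus CAL-29 (−0.06 on the log2 scale) was at 0.33 after TMM scaling, 0.33 in limma-voom, 0.33 in edgeR and 0.38 in DESeq2, and at −0.13 to 0.0619 with a variant left out. BBC3 in that comparison ranged from −0.16 to 0.62. In RT-112, TP63 with WWOX (−0.06) was at 0.0231 in edgeR and 0.0356 in DESeq2 and ranged from −0.26 to 0.10 with a variant left out, as did BAX from −0.0082 to 0.42, SESN1 from −0.15 to 0.43 and TP73 from −0.50 to 0.14. In HT-1376, BBC3 (−0.22) was at 0.0661 in DESeq2 and ranged from −0.40 to 0.11, TP63 from −0.64 to 0.0068 and TP73 from −0.53 to 0.18. In CAL-29, with all 18 libraries BAX (−0.10) was at 0.0122, SESN1 (−0.16) at 0.0703 and ZMAT3 (0.25) at −0.21, and with a variant left out BAX ranged from −0.41 to 0.22, BBC3 from −1.17 to 0.0514, MDM2 from −0.70 to 1.05, SESN1 from −0.98 to 0.46 and ZMAT3 from −0.80 to 1.23. Depth limited ZMAT3 and SESN1, whose lowest values stood for 25 and 30 reads.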

Other observations

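Between lines, the WWOX difference of some pathway genes outside the members passed the interaction test in limma with Benjamini-Hochberg adjustment. For HT-1376 minus CAL-29 these included POLH (−1.81 ± 0.45 SE, adjusted p = 0.0434), DDB2, a DNA damage sensor (−1.31 ± 0.28 SE, adjusted p = 0.0242), and PERP, a desmosomal protein (−1.42 ± 0.35 SE, adjusted p = 0.0424), as log2 differences of the WWOX effect. In HT-1376, DDB2 was at 29.6, 27.1 and 28.0 CPM in WK, WA and WC and at 46.4, 41.9 and 34.8 CPM in KK, KA and KC, and in CAL-29 at 35.4, 22.9 and 25.8 CPM in WK, WA and WC and 18.3 and 14.8 CPM in KK and KA. S100A2 and HAS3 differed by 4.84 ± 0.97 (SE, adjusted p = 0.0192) and 4.37 ± 0.95 (SE, adjusted p = 0.0272) in the same comparison. S100A2 was at 3608, 2105 and 8095 CPM in WK, WA and WC of CAL-29 and 1935 and 2476 CPM in KK and KA. The library labelled CAL-29 KC was at 45.5 CPM of S100A2, within the range of the control-labelled libraries of HT-1376.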
